A study of Mus musculus with 7 samples.

Results

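The clock output factors that bind D-boxes, together with the Dec repressors, were measured in mouse nasal tissue as 6 genes, *Dbp*, *Tef*, *Hlf*, *Nfil3*, *Bhlhe40* and *Bhlhe41*, out of 32095 genes and transcripts named on the array. They were chosen by name as the proline- and acid-rich (PAR) bZIP activators, their bZIP repressor and the 2 Dec factors, and all 6 were found, on 8 probes. The animals were BALB/c females aged 6 weeks, which inhaled diesel exhaust particles (DEPs) suspended in saline at 100 µg/m3 for 1 hour a day on 5 days a week, for 4 or 8 weeks, and control mice inhaled saline under the same conditions as far as the methods describe the shorter exposure. Total RNA came from tissue that held the nasal septum and turbinates. On each array the RNA of DEP-exposed mice carried the Cy5 dye and that of control mice the Cy3 dye. There were 4 arrays for the exposure of 4 weeks and 3 for that of 8 weeks. The labels call the arrays biological replicates, but how many mice gave RNA to an array and at what hour of the day the tissue was collected are not given in the sources used here, so that p-values measure the spread between these arrays.

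Most animal cells carry a circadian clock in which BMAL1 (encoded by *Arntl*) and CLOCK switch on their own repressors through short DNA elements called E-boxes. The same pair drives output factors, among them DBP, TEF and HLF, which activate genes through a second element, the D-box, while NFIL3 (also called E4BP4) binds the D-box as a repressor. DEC1 (*Bhlhe40*) and DEC2 (*Bhlhe41*) are repressors that compete at E-boxes. In tissues with a running clock *Dbp* swings widely over the day, and *Nfil3* peaks at about the opposite time, under the control of the REV-ERB and ROR nuclear receptors.

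The sequences before the transcription starts are shown because *Dbp*, *Tef* and *Hlf* moved together in these data and *Nfil3* moved the other way. Each run is the 250 bases before a RefSeq start of GRCm38.p6, 5′ to 3′ on the strand of the gene, with capitals marking an E-box (CACGTG) or a half-site of the REV-ERB and ROR element (AGGTCA, or TGACCT on the other strand). Of the 6 genes, 5 had an entry in the sequence table, and *Bhlhe40* had none.
Dbp, chr7:45704997-45705246, plus strand: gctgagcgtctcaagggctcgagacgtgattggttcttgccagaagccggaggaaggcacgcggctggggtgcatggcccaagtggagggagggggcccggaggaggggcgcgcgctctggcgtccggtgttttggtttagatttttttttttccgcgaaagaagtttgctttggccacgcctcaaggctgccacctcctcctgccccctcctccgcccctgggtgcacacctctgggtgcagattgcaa
Tef, chr15:81802423-81802672, plus strand: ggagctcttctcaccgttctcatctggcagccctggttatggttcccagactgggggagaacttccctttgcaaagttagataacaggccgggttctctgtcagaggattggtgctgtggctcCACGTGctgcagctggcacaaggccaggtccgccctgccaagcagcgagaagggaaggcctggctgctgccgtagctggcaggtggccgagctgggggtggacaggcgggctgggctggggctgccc
Tef, chr15:81811164-81811413, plus strand: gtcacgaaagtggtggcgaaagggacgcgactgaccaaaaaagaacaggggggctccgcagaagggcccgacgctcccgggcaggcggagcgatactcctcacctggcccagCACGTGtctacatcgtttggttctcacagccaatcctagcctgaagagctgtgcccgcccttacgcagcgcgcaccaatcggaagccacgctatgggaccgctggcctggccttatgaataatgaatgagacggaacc
Hlf, chr11:90390918-90391167, minus strand: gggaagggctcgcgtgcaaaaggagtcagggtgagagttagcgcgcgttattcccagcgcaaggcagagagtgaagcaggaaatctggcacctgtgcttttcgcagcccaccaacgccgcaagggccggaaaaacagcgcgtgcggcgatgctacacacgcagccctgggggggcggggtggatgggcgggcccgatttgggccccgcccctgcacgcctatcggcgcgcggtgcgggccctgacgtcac
Nfil3, chr13:52981040-52981289, minus strand: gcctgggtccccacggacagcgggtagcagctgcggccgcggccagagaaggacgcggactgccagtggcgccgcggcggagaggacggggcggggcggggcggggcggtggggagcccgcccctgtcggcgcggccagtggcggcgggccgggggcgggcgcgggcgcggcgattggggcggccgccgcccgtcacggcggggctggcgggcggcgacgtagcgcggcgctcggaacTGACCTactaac

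The E-box letters stood in both windows of *Tef*, starting at base -127 and at base -138 from the start site, and in the window of *Bhlhe41* (chr6:145865421-145865670, minus strand, base -153), and in none of the windows of *Dbp*, *Hlf* and *Nfil3*. Of all 32851 windows in the table, 6.02% held an E-box. The half-site stood in the window of *Nfil3* at base -12, as it did in 14% of all windows. The D-box was searched as TTATGTAA or TTACGTAA on either strand, was in 0.931% of all windows, and was in none of the 6 windows of these genes. These matches describe the letters in a short window and show neither binding nor its absence.

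No probe spot was saturated, and between 16937 and 26957 of 39429 probes were well above background in the control channel and between 18533 and 25091 in the DEP channel. Of the markers that define nasal tissue here, all 7 of olfactory sensory neurons, 3 of 4 of sustentacular cells, 4 of 5 of ciliated cells and 3 of 4 of secretory airway cells were well above background in the control channel of all 7 arrays. In tissue RNA, fewer cells of a type and less RNA per cell cannot be told apart. The dyes were never swapped, so a dye effect and DEP cannot be told apart, and each exposure time had a slide of its own, so slide, exposure time and age of the mice cannot be told apart. Values for a gene are log2(DEP/control) on each array or the log2 level of a channel after normalization between arrays, and are those of the tested probe with the highest mean intensity.

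After 4 weeks, the 3 activators were higher in DEP-exposed tissue and the repressor *Nfil3* was lower, and after 8 weeks each of these 4 genes had changed sign. *Dbp* was 3.23-fold higher after 4 weeks and 2.08-fold lower after 8 weeks, while *Nfil3* was 1.90-fold lower and then 2.36-fold higher. The Dec gene *Bhlhe40* was 1.30-fold lower after 8 weeks, and *Bhlhe41* lay close to background. At an adjusted p of at most 0.05, 4 of the 6 genes were called higher and 1 lower after 4 weeks, against 21.7% of the 20693 genes tested called higher and 16.5% called lower. *Bhlhe41* was among the 4 called higher, and that call was lost under 8 of 16 alternatives. After 8 weeks 1 was called higher and 4 lower, against 20.3% and 16.9% of all genes. At the study's thresholds, which ask for a 2-fold change or more and an unadjusted p no higher than 0.01, *Dbp* passed after 4 weeks and *Dbp* and *Nfil3* after 8 weeks, against 1.3% and 2.94% of all genes.

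These shares of all genes depend on the centring of the arrays. Among the genes called after 4 weeks, 56.8% were higher with loess, 42.6% with median centring in its place and 67.5% with the signals as the scanner software had processed them. After 8 weeks 54.6% were higher with loess and 27.0% with median centring. Under the alternatives for background and centring, the median log2 ratio of the tested probes on a single array lay between -0.134 and 0.163. The directions given below for *Dbp*, *Tef*, *Hlf* and *Nfil3* in the DEP over control ratio were the same under every alternative run.

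**Figure D1:**
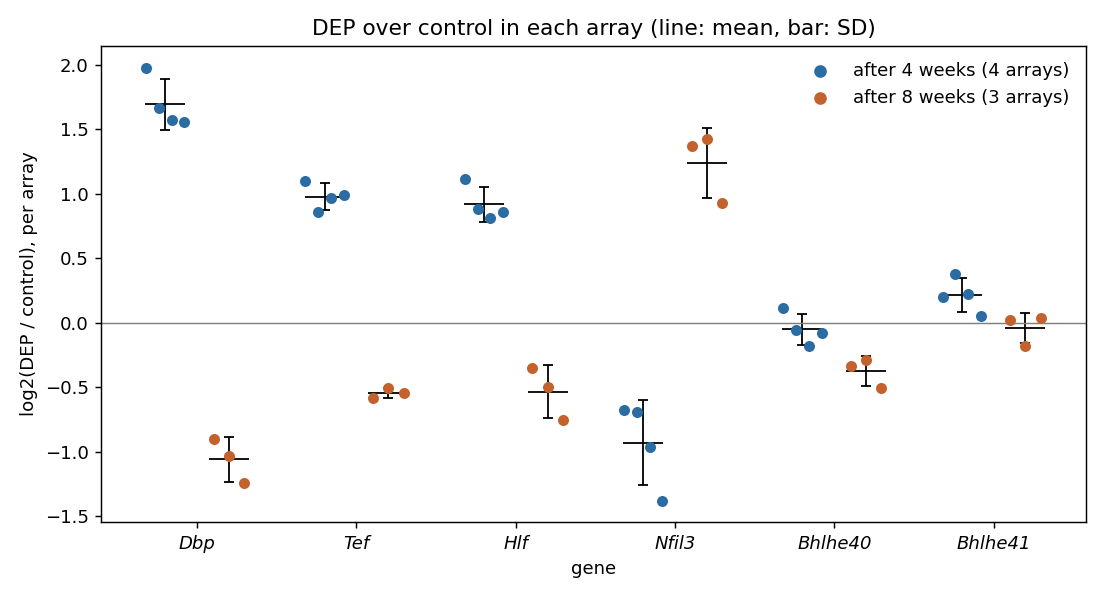
The log2 ratio of DEP over control (vertical axis) is plotted for each of the 6 genes, with 1 point per array, blue after 4 weeks (4 arrays) and orange after 8 weeks (3 arrays), and with the mean (line) and SD (bar). *Dbp*, *Tef* and *Hlf* lie above 0 on all arrays of 4 weeks and below 0 on all arrays of 8 weeks, and *Nfil3* lies the other way round.

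*Dbp* encodes the first of the PAR bZIP activators that bind the D-box. Its log2 ratios on the 4 arrays of 4 weeks were 1.98, 1.67, 1.57 and 1.55, and on the 3 arrays of 8 weeks -0.90, -1.03 and -1.24. The arrays of the 2 exposure times did not overlap and lay on opposite sides of 0. The mean was 1.69 (SE 0.085, n = 4, adjusted p = 1.02e-05 by limma) after 4 weeks and -1.06 (SE 0.098, n = 3, adjusted p = 0.000159 by limma) after 8 weeks. The second probe of *Dbp* gave 1.51 and -1.41. Of the 20693 genes tested, 59 had a larger size of log2 ratio after 4 weeks and 545 after 8 weeks, and the median size over all genes was 0.171 and 0.180.

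*Tef*, the second PAR bZIP activator, had ratios of 1.103, 0.86, 0.96 and 0.99 after 4 weeks and of -0.58, -0.51 and -0.54 after 8 weeks. Its 3 arrays of 8 weeks agreed more closely than those of any other member at that time, with an SD of 0.0383. The mean was 0.98 (SE 0.051, adjusted p = 1.14e-05 by limma, n = 4), or 1.97-fold, and then -0.54 (SE 0.059, adjusted p = 0.000354 by limma, n = 3), or 1.46-fold lower.

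*Hlf*, the third of these activators, had ratios of 1.11, 0.89, 0.82 and 0.86 after 4 weeks and of -0.35, -0.49 and -0.76 after 8 weeks. As with *Dbp*, replicate 1 was the highest array at each exposure time and the groups did not overlap. The mean was 0.92 (SE 0.077, adjusted p = 0.000119 by limma, n = 4) and then -0.53 (SE 0.089, adjusted p = 0.00295 by limma, n = 3). With the methods' t-test, run here on the DEP and control channel levels as unpaired samples, the call after 8 weeks was lost, at an adjusted p of 0.0502.

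*Nfil3*, the D-box repressor, ran against the activators on every array. Its ratios were -0.67, -0.69, -0.96 and -1.38 after 4 weeks and 1.37, 1.43 and 0.93 after 8 weeks. Replicate 4 of 4 weeks was the lowest and replicate 3 of 8 weeks the least high, and the SD of 0.328 after 4 weeks was wider than that of the activators. The mean was -0.93 (SE 0.129, adjusted p = 0.00135 by limma, n = 4) and then 1.24 (SE 0.149, adjusted p = 0.000609 by limma, n = 3).

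*Bhlhe40* encodes the E-box repressor DEC1. Its ratios after 4 weeks were 0.11, -0.05, -0.18 and -0.08, on both sides of 0, with a mean of -0.05 (95% interval -0.19 to 0.09, adjusted p = 0.554 by limma, n = 4). After 8 weeks they were -0.33, -0.28 and -0.51, all below those of 4 weeks, with a mean of -0.37 (SE 0.071, adjusted p = 0.00546 by limma, n = 3).

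*Bhlhe41*, the gene of DEC2, was barely measured. Its brighter probe was well above background on 0 of 4 control channels and 2 of 4 DEP channels after 4 weeks, and on 2 of 3 channels of each kind after 8 weeks, and its other probe did not pass the filter. The ratios were 0.20, 0.38, 0.22 and 0.06 after 4 weeks and 0.02, -0.18 and 0.04 after 8 weeks. The mean after 4 weeks was 0.21 (95% interval 0.07 to 0.36, adjusted p = 0.0331 by limma, n = 4), or 1.16-fold. With the control not well above background, the size of this difference is uncertain. The call was lost under 8 of 16 alternatives, with adjusted p between 0.00279 and 0.181. Leaving out replicate 1, 2 or 3 of 4 weeks was among those, with adjusted p of 0.0671, 0.131 and 0.0859. After 8 weeks the mean was -0.04 (95% interval -0.21 to 0.13, adjusted p = 0.729 by limma, n = 3).

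The difference between the exposure times was tested directly in the same model. It was larger than the spread between arrays for *Dbp* (-2.75, SE 0.130, adjusted p = 1.42e-05 by limma), *Tef* (-1.52, adjusted p = 2.05e-05), *Hlf* (-1.45, adjusted p = 0.000159) and *Nfil3* (2.17, adjusted p = 0.000266). Each of these 4 passed under all 16 alternatives run for this comparison. *Bhlhe40* also passed, with -0.32 (SE 0.094, adjusted p = 0.0356 by limma), but not under 8 of 16 alternatives, with adjusted p between 0.00437 and 0.109. When arrays were left out in turn it passed without replicate 3 of 4 weeks (adjusted p = 0.0348 by limma), and without each of the other 6 arrays the adjusted p was above 0.05 and reached 0.109. *Bhlhe41* gave -0.25 (95% interval -0.48 to -0.03, adjusted p = 0.0891 by limma). In all, 1 of the 6 genes was called higher and 4 lower, against 14.8% and 16.1% of the genes tested, and 4 passed the study's thresholds, against 3.06% of all genes. Of all genes called in this comparison, 47.9% were higher with loess, 28.8% with median centring and 35.5% with the processed signals. The difference of *Dbp* was exceeded in size by 26 of 20693 genes and that of *Nfil3* by 56.

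The 2 channels were then compared between the exposure times. Levels of *Dbp* in the control channel were 8.28, 8.26, 8.47 and 8.40 on the log2 scale after 4 weeks and 11.21, 11.13 and 11.23 after 8 weeks. In the DEP channel they were 10.26, 9.92, 10.04 and 9.95 and then 10.31, 10.09 and 9.98. The control level was thus the lowest of the 4 groups after 4 weeks and the highest after 8 weeks, and the DEP levels of the 2 times lay between them and overlapped.

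For *Dbp* the control level was 7.13-fold higher on the arrays of 8 weeks than on those of 4 weeks (2.83 on the log2 scale, SE 0.067, adjusted p = 1.03e-06 by limma), and the DEP level differed by 0.08 (95% interval -0.16 to 0.33, adjusted p = 0.577 by limma). The contrast was visible in the deposited median signals before any normalization. In the control channel they were 361, 349.5, 392 and 371 after 4 weeks and 2415, 2542 and 2446.5 after 8 weeks, over local backgrounds of 48 to 61. In the DEP channel they lay between 903 and 1132 after 4 weeks and between 693.5 and 970 after 8 weeks. The second probe gave 2.95 in the control channel and 0.03 in the DEP channel.

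**Figure D2:**
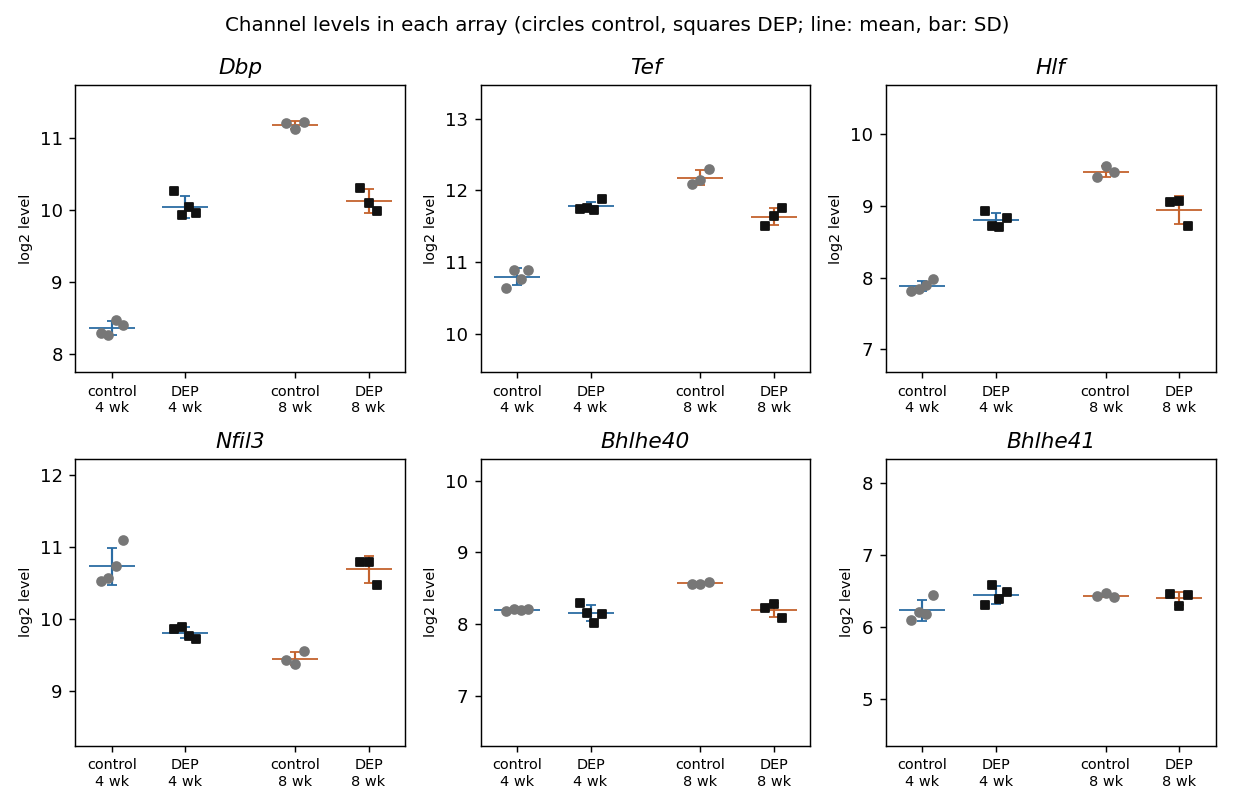
The log2 level after normalization between arrays (vertical axis, each panel spanning the same number of log2 units) is plotted per array for the control channel (grey circles) and the DEP channel (black squares) after 4 and 8 weeks, with mean and SD. For *Dbp*, *Tef* and *Hlf* the control group is the lowest after 4 weeks and the highest after 8 weeks, and for *Nfil3* the DEP levels rise while the control levels fall.

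*Tef* and *Hlf* had the same order of groups at its ends. The control levels of *Tef* were 10.64, 10.90, 10.77 and 10.89 after 4 weeks and 12.10, 12.15 and 12.30 after 8 weeks, a 2.61-fold difference (adjusted p = 6.10e-05 by limma). Its DEP levels were 11.75, 11.76, 11.73 and 11.88 and then 11.51, 11.64 and 11.76, which overlapped, and differed by -0.14 (95% interval -0.34 to 0.06, adjusted p = 0.231 by limma). This DEP difference was called, at -0.45 with an adjusted p of 0.00414, when the channels were not normalized between arrays.

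The control levels of *Hlf* were 7.81, 7.84, 7.89 and 7.98 after 4 weeks and 9.40, 9.56 and 9.48 after 8 weeks, a 3.03-fold difference (adjusted p = 9.72e-06 by limma). Its DEP levels were 8.93, 8.72, 8.71 and 8.84 and then 9.05, 9.06 and 8.72. These overlapped too, and differed by 0.15 (95% interval -0.09 to 0.38, adjusted p = 0.297 by limma).

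*Nfil3* was called in both channels, and was the only member called in the DEP channel except where *Tef* was, without normalization between arrays. Its control levels were 10.53, 10.57, 10.73 and 11.10 after 4 weeks and 9.43, 9.37 and 9.55 after 8 weeks. Its DEP levels were 9.85, 9.88, 9.77 and 9.72 and then 10.80, 10.79 and 10.48. No array of either channel overlapped between the exposure times, and the highest pair of groups, the control of 4 weeks and the DEP group of 8 weeks, overlapped with each other. The control level was 2.44-fold lower on the arrays of 8 weeks (-1.28, SE 0.141, adjusted p = 0.000706 by limma) and the DEP level 1.85-fold higher (0.88, SE 0.101, adjusted p = 5.28e-05 by limma).

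*Bhlhe40* had control levels of 8.18, 8.21, 8.199 and 8.21 after 4 weeks and of 8.56, 8.56 and 8.59 after 8 weeks, a 1.29-fold difference (adjusted p = 0.000726 by limma). This control difference was 0.21 and not called, with an adjusted p of 0.0603, when the channels were not normalized between arrays. Its DEP levels ran from 8.02 to 8.29 and from 8.09 to 8.27, overlapped with each other and, after 4 weeks, with the control, and differed by 0.05 (95% interval -0.16 to 0.25, adjusted p = 0.719 by limma). The control levels of *Bhlhe41* ran from 6.10 to 6.44 and from 6.41 to 6.47, with a difference of 0.21 (95% interval 0.0062 to 0.40, adjusted p = 0.110 by limma). Its DEP levels ran from 6.30 to 6.59 and from 6.29 to 6.46, overlapped with each other and with the control at both times, and differed by -0.05 (95% interval -0.26 to 0.16, adjusted p = 0.723 by limma).

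In the control channel, 4 of the 6 genes were called higher after 8 weeks and 1 lower, against 21.9% and 11.5% of the genes tested. In the DEP channel 1 was called higher and none lower, against 24% and 17.4% of the genes tested. The control channel and the DEP over control ratio share the control RNA, so these are views of the same values. Of all genes called, 65.5% were higher in the control channel, against 76.4% with median centring and 34.4% without normalization between arrays, and 58.0% in the DEP channel, against 34.8% without it. In the control channel *Dbp*, *Tef*, *Hlf* and *Nfil3* were called in the same direction under all 17 alternatives.

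**Figure D3:**
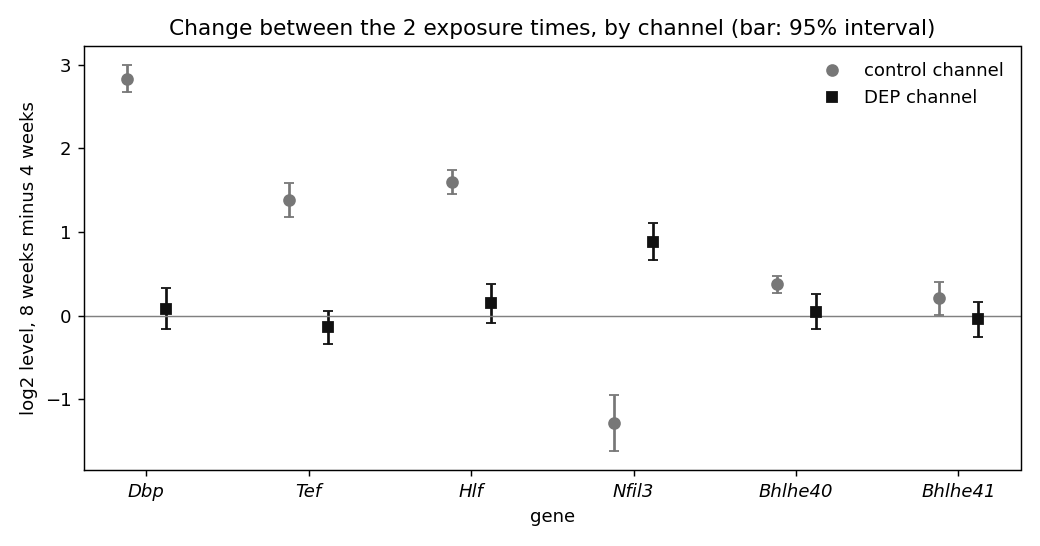
The log2 level after 8 weeks minus that after 4 weeks (vertical axis) is plotted for each gene in the control channel (grey circles) and the DEP channel (black squares), with the 95% interval of the limma fit. The control values of *Dbp*, *Tef* and *Hlf* are 2.83, 1.38 and 1.60 and their DEP intervals include 0, while *Nfil3* lies at -1.28 in the control and at 0.88 in the DEP channel.

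The genes that drive and restrain these factors were followed in lists of the core clock. Counts in these and the later lists stand against the shares of all genes called. Those were 21.7% higher and 16.5% lower after 4 weeks, and 20.3% higher and 16.9% lower after 8 weeks. Between the exposure times they were 14.8% and 16.1% in the ratio, 21.9% and 11.5% in the control channel, and 24% and 17.4% in the DEP channel. Of the 5 activators reported here, which include the genes of BMAL1, CLOCK and ROR receptors and are not the whole family, none was called higher and 2 lower after 4 weeks, and 5 higher and none lower after 8 weeks. *Arntl* itself had ratios of -0.72, -0.95, -0.91 and -1.02 and then of 0.93, 0.77 and 0.39, so that the groups did not overlap, and its mean went from -0.90 (adjusted p = 0.000281 by limma) to 0.70 (adjusted p = 0.00173). *Clock* gave -0.38 and 0.46, *Npas2* 0.03 and 0.60, *Rora* -0.03 and 0.41, and *Rorb* -0.08 and 0.65. *Npas2* and *Rorb* were well above background on 1 of 4 control channels after 4 weeks, and *Rorb* on 0 of 4 DEP channels then. The call of *Clock* was lost under 5 of 17 alternatives after 4 weeks, without each of the 4 arrays of that time among them, and under 3 of 17 after 8 weeks. The number of activators called higher after 8 weeks ran from 3 to 5 over the alternatives and was 3 without replicate 2 of 8 weeks.

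Of the 8 repressors, 6 were tested, and 3 were called higher and none lower after 4 weeks, and none higher and 3 lower after 8 weeks. *Per1*, a light- and hormone-responsive period gene, was 1.00 after 4 weeks (adjusted p = 2.87e-05 by limma) and 0.07 after 8 weeks (adjusted p = 0.502). *Nr1d1* and *Nr1d2*, the genes of the REV-ERB receptors that repress *Arntl* and *Nfil3*, gave 0.12 and 0.43 after 4 weeks and -0.79 and -0.51 after 8 weeks, and *Cry2* gave 0.40 and -0.23. The call of *Cry2* after 8 weeks was lost without replicate 2 or 3 of that time, with adjusted p of 0.0929 and 0.103 by limma. *Per2* was at 0.09 and -0.40 and *Per3* at -0.02 and -0.05, all uncalled. *Nr1d1*, *Per2* and *Per3* had no value when probes had to be well above background in both channels of all arrays. Between the exposure times 5 activators were called higher and 4 repressors lower in the ratio, and in the control channel 4 activators were called lower and 4 repressors higher, among them *Arntl* at -1.17, *Nr1d1* at 1.27 and *Nr1d2* at 1.18. Over the alternatives both numbers of the ratio ran from 3 to 5. Those of the control channel ran from 2 to 4 for the activators and from 3 to 5 for the repressors, and the control difference of *Nr1d1* ran from 1.14 to 2.21. In the control channel *Arntl* thus changed with *Nfil3*, and the REV-ERB genes with *Dbp*, *Tef* and *Hlf*. The DEP channel did not show this split. There *Arntl* was at 0.43 (adjusted p = 0.00781 by limma), *Nr1d1* at 0.36 (adjusted p = 0.0357) and *Nr1d2* at 0.23 (adjusted p = 0.115). These had the same sign as *Nfil3* at 0.88, while *Dbp*, *Tef* and *Hlf* were uncalled. That call of *Nr1d1* was lost under 12 of 16 alternatives. Of the 3 clock kinases and ligases tested and reported here, 1 was called higher (*Btrc*, 0.41) and none lower after 4 weeks, and none was called after 8 weeks.

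Of 7 genes known as targets of the PAR bZIP factors, 6 were tested. After 4 weeks 3 were called higher and 1 lower, and after 8 weeks 1 higher and 5 lower. *Alas1*, the first enzyme of haem synthesis, had ratios of 1.11, 1.06, 0.94 and 0.95 after 4 weeks and of -1.28, -1.22 and -1.22 after 8 weeks. These did not overlap, and the mean went from 1.01 (adjusted p = 7.81e-06 by limma) to -1.24 (adjusted p = 4.42e-06), with a control level 3.55-fold higher after 8 weeks. *Cyp2a4*, a P450 enzyme whose probe may also read its close copy *Cyp2a5*, gave 0.59 and -0.51, and *Por*, the electron donor of the P450 enzymes, 0.42 and -0.42. *Pdxk*, which makes active vitamin B6, gave -0.05 (adjusted p = 0.651 by limma) and -1.07 (adjusted p = 8.67e-05). The gene called lower after 4 weeks was *Cyp2b10* (-0.23) and the one called higher after 8 weeks was *Nr1i3* (0.54), a nuclear receptor gene. *Nr1i3* had no value under the filter on both channels of all arrays, and over the other alternatives it ran from 0.48 to 1.27 after 8 weeks. The call of *Cyp2b10* after 4 weeks was lost under 8 of 17 alternatives, without each of the 4 arrays of that time and without replicate 2 of 8 weeks among them, with adjusted p up to 0.102. The median of the 6 was 0.19 after 4 weeks and -0.61 after 8 weeks, against 0.00 and 0.01 over all genes.

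Of 3 other clock-controlled genes, 2 were called higher after 4 weeks and 2 lower after 8 weeks. *Usp2*, a deubiquitinase, gave 0.90 (adjusted p = 9.76e-05 by limma) and -0.06 (adjusted p = 0.599), the cell cycle kinase gene *Wee1* gave 0.27 and -0.30, and *Nampt*, of NAD synthesis, gave -0.16 and -0.37. The call of *Wee1* after 4 weeks was lost under 8 of 16 alternatives and that after 8 weeks under 7 of 16.

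**Figure D4:**
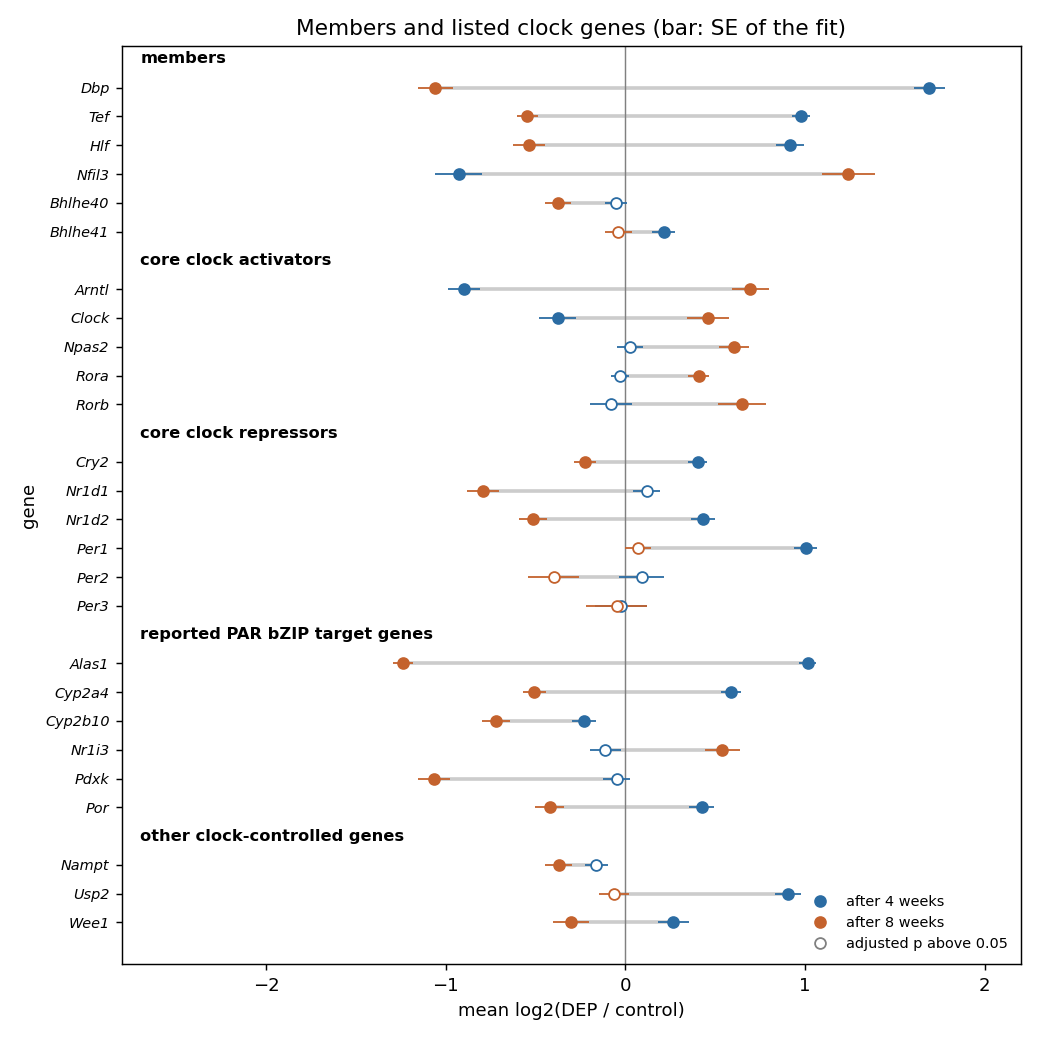
The mean log2 ratio of DEP over control (horizontal axis) is plotted after 4 weeks (blue) and 8 weeks (orange) for the 6 genes and the listed clock and target genes, with the SE of the fit, open circles marking an adjusted p above 0.05. *Dbp* runs from 1.69 to -1.06 and *Alas1* from 1.01 to -1.24, and *Nfil3* and *Arntl* run the other way.

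Relatives of the members by protein family were counted in the same way. Of 5 C/EBP bZIP genes, 4 were called lower and none higher after 4 weeks, and 3 lower and 1 higher after 8 weeks. *Cebpd*, an acute-phase activator, was at -1.56 after 4 weeks (adjusted p = 3.25e-06 by limma) and 0.24 after 8 weeks, with a control level 3.59-fold lower after 8 weeks, *Cebpa* was at -0.24 and -1.01, *Cebpb* at -0.31 and -0.18, *Cebpg* at -0.26 and -0.44, and *Ddit3* at 0.03 and -0.38. The number called lower after 4 weeks ran from 2 to 4 over the alternatives, and *Cebpa* lost its call then under 8 of 17, among them without replicate 2 or 4 of 4 weeks (adjusted p = 0.0869 and 0.118 by limma). After 8 weeks *Cebpd* lost its call under 4 of 17, without replicate 2 or 3 of 8 weeks among them, and was at -0.092 with median centring. Of 5 bHLH-Orange genes related to the Dec factors, 2 were called higher and 1 lower after 4 weeks and 4 lower after 8 weeks, with *Hes5* at 0.02 and -0.53, *Hes6* at 0.25 and -0.36, *Hey1* at 0.18 and -0.35, and *Hes1* at -0.22 and -0.42. The calls of 4 weeks did not hold throughout, since *Hey1* lost its call under 10 of 17 alternatives, *Hes1* under 5 and *Hes6* under 3, each of them without replicate 3 of 4 weeks among others. The number called higher then ran from 0 to 2 and the number called lower from 0 to 1, and the median of 0.02 changed sign under 3 of 17. Of all genes tested, 21.7% were called higher and 16.5% lower after 4 weeks, and 20.3% higher and 16.9% lower after 8 weeks.

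Genes that respond to glucocorticoids and to hypoxia were listed because the first signal is known to act on *Per1* and the second on the Dec genes. Of 7 glucocorticoid-responsive genes, 1 was called lower after 4 weeks (*Errfi1*, -0.56), against 16.5% of all genes. After 8 weeks 2 were called higher (*Dusp1*, 0.66, and *Sgk1*, 0.48), against 20.3%. In the control channel 5 were called lower after 8 weeks, led by *Fkbp5* at -0.77, against 11.5% of all genes. *Fkbp5* fell in the DEP channel too, at -0.79. There 3 were called lower and 2 higher, against 17.4% and 24% of all genes. In the ratio after 8 weeks *Dusp1* lost its call under 3 of 17 alternatives and *Sgk1* under 2, both with median centring and without replicate 2 of 8 weeks. Over the alternatives the number called higher then ran from 0 to 2 and the number called lower from 0 to 4, and the median of 0.03 was at -0.28 with median centring and also below 0 without replicate 3 of 8 weeks. The number called lower in the control channel ran from 3 to 5. Of 8 hypoxia-responsive genes, 3 were called lower after 4 weeks, *Ndrg1* at -0.67, *Slc2a1* at -0.38 and *Egln3* at -0.22, and after 8 weeks *Slc2a1* was called higher at 0.59 and *Ankrd37* and *Egln3* lower at -0.33 and -0.17. *Egln3* lost the latter call under 6 of 17 alternatives, without each of the 3 arrays of 8 weeks among them, and *Ankrd37* under 3, without replicate 1 or 2 of 8 weeks among them, and the number called lower ran from 0 to 4. In the control channel 5 of the 8 were called lower after 8 weeks, with *Ndrg1* at -1.57, and over the alternatives this number ran from 3 to 6. In the DEP channel 2 were called lower and 1 higher, with *Ndrg1* at -1.05. Of all genes, 16.5% were called lower in the ratio after 4 weeks, and 20.3% higher and 16.9% lower after 8 weeks. In the control channel 11.5% of all genes were called lower.

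By the root-mean-square difference of log2 ratios over the 7 arrays, among 20434 genes with a value on each array, the pattern of *Dbp* was most like that of *Rnu1b6* (0.542), *Alas1* (0.544) and *Kcnj5* (0.584). That of *Nfil3* was most like *C2cd4b* (0.252), *Ppp1r3c* (0.308) and *Dspp* (0.325), the last a dentin gene.

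Markers of other cells moved with the same contrasts. Of 7 markers of olfactory sensory neurons, 5 were called higher and none lower after 4 weeks (median 0.44), and 6 lower and none higher after 8 weeks (median -0.71), the same signs as *Dbp*. Their summed level, in normalized intensity units, ran from 79563 to 94121 in the control and from 145741 to 160071 in the DEP channel after 4 weeks, and from 131563 to 148165 and from 94222 to 98967 after 8 weeks. In the DEP channel 6 of 7 were called lower after 8 weeks (median -0.54), where *Dbp* gave 0.08.

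All 4 tooth markers were called lower after 4 weeks (median -1.48) and higher after 8 weeks (median 1.16), the same signs as *Nfil3*. Their summed level ran from 15826 to 17075 in the control and from 5144 to 5735 in the DEP channel after 4 weeks, and from 43591 to 44836 and from 76362 to 100954 after 8 weeks. In the control channel they were higher after 8 weeks (median 1.60), where *Nfil3* was lower. All 7 olfactory and all 4 tooth markers were well above background in the control channel of all 7 arrays. Sustentacular markers were called higher in 4 of 4 after 4 weeks (median 0.33) and lower in 3 of 4 after 8 weeks (median -0.39), with *Ermn* higher at 1.70. Over the alternatives the number called higher after 4 weeks ran from 1 to 4, with *Cyp2g1* (0.16, adjusted p = 0.0465 by limma) losing its call under 12 of 17 and *Ugt2a1* (0.34) under 8 of 16, and the number called lower after 8 weeks ran from 1 to 3. For the olfactory markers the number called higher after 4 weeks ran from 4 to 6 and that called lower after 8 weeks from 4 to 7, while all 4 tooth markers were called in the same direction at each time under every alternative run. Neutrophil markers were called lower in 4 of 4 tested after 4 weeks and in 3 of 4 after 8 weeks, with medians of -0.75 and -1.52.

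Between the exposure times the median difference of the ratio was -1.17 for olfactory neurons, 2.49 for tooth, -0.68 for sustentacular cells, -0.31 for neutrophils, -0.17 for ciliated cells, 0.28 for secretory airway cells, 0.40 for squamous epithelium, 0.66 for bone and cartilage, -0.48 for skeletal muscle and -0.69 for erythroid cells. The sign for ciliated cells turned when probes had to be well above background in both channels of all arrays. The part of tissue makeup in the values of the 6 genes was not tested.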

How the data were processed

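RNA from DEP-exposed (Cy5) and control (Cy3) nasal tissue was hybridised together on 7 Agilent mouse arrays, 4 after 4 weeks and 3 after 8 weeks. The authors deposited 1 file per array, written by Feature Extraction 10.10.1.1, whose median signals and median backgrounds are intensity values with no subtraction or normalization. The software's processed signals, also deposited as intensity values, were used only as an alternative, and the GeneSpring steps of the methods were not repeated. With limma 3.58.1 in R 4.3.3, normexp with an offset of 50 served to correct for background, with its parameters fitted without spots marked as background outliers. Log2 ratios were normalized by loess within arrays with control spots at weight 0, non-uniform spots were excluded, and spots of a probe were averaged, which gave 39429 probes. Of these, 25197 were tested, which had at least 1 channel well above background on 3 or more of the 7 arrays, and 28330 were named through RefSeq accessions of GRCm38.p6. The tested probes stand for 20693 genes or transcripts, for each of which the brightest tested probe on average was taken.

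One linear model over the 7 arrays (lmFit and eBayes) gave a mean ratio per exposure time and their difference, and the channel levels after Aquantile normalization were fitted likewise. The p-values were adjusted by Benjamini-Hochberg over all tested probes and called at 0.05 or below. Precision is limited by how many arrays there are. The 6 members, the gene and marker lists and the rules for naming genes were chosen with earlier results of these data known. The genes named are the 6 members, the tested core clock genes, of every other list up to 4 genes called in a comparison, taken by largest size within that comparison, and for *Dbp* and *Nfil3* the 3 genes with the most similar ratios. Some genes of the clock lists are not reported here and were left out of the counts and medians of their lists. The steps up to the fits of the ratio were tested on simulated arrays in which few probes were changed. The channel comparisons between the exposure times were not checked in that way. The alternatives were other background corrections, the processed signals, median centring, an offset of 16, a stricter filter and none, each exposure time fitted alone, the methods' t-test, the replicate number as a block, other normalizations between arrays, array weights and leaving out each array.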

Additional observations from a re-analysis of the deposited data

Results flagged for a closer look

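The DEP over control ratio differed between the exposure times for *Dbp* (-2.75), *Tef* (-1.52), *Hlf* (-1.45), *Nfil3* (2.17) and *Bhlhe40* (-0.32). These values are 8 weeks minus 4 weeks on the log2 scale, tested as the difference itself. In the control channel *Dbp*, *Tef*, *Hlf* and *Bhlhe40* differed by 2.83, 1.38, 1.60 and 0.37. In the DEP channel they differed by 0.08, -0.14, 0.15 and 0.05, none of them called. *Nfil3* differed by -1.28 in the control and 0.88 in the DEP channel. Slide, exposure time and age of the mice cannot be told apart. The difference of *Bhlhe40* in the ratio passed under 8 of 16 alternatives. After normalization between arrays, the DEP level of *Tef* on replicate 4 of 4 weeks was 11.88 on the log2 scale. It stood apart from the other arrays of its group, which lay between 11.73 and 11.76. In the deposited median signals that array did not stand apart, at 3531 where the others ran from 3300 to 4146. The normalized value was the only such one among 18 groups of 4 values examined, and chance alone gives about 1 in 20.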

How the results depend on the processing

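Among single members, 462 values under the alternatives kept their direction and their side of the threshold, 18 lost a call, 7 gained one and 12 changed sign. The number of members past the study's thresholds after 4 weeks, 1 as reported, was 3 with the processed signals, 2 with median centring and 2 with an offset of 16, and ran from 1 to 3 when arrays were left out in turn (2 without replicate 1 and 3 without replicate 2 of 4 weeks). After 8 weeks this number, 2 as reported, was 1 with median centring, and ran from 1 to 2 (1 without replicate 3 of 8 weeks). Without normalization between arrays, 2 members were called in the DEP channel, against 1. The cause was not tested.

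The values that changed sign were uncalled in the main setting. In the DEP channel, *Bhlhe40* was at -0.034 with the processed signals, -0.031 with median centring and -0.11 without normalization between arrays. *Dbp* was at -0.033 with median centring and -0.18 without normalization between arrays, and ran from -0.0077 to 0.16 when arrays were left out, and *Hlf* was at -0.053 without normalization between arrays. *Bhlhe41* in that channel was at 0.018 with normexp fitted on all spots and ran from -0.095 to 0.0071 when arrays were left out (0.00098 without replicate 2 of 4 weeks). In the ratio after 8 weeks it was at 0.0090 with median centring and ran from -0.076 to 0.030. The filter on both channels of all arrays left no value for *Bhlhe41*.

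Over all genes and transcripts tested, 7900 were called after 4 weeks, against 5054 with normexp fitted on all spots and 4397 with the methods' t-test. After 8 weeks 7703 were called, against 4838 with that test and 4468 without replicate 2 of 8 weeks. Between the exposure times 6397 were called in the ratio, against 3871 without that array. In the DEP channel 8570 of 20693 were called, against 5551 of the 12533 that were left by the filter on both channels. After Benjamini-Hochberg adjustment the methods' t-test called 4 members after 4 weeks and 4 after 8 weeks, and at the study's thresholds 1 and 2.

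Arrays with the same replicate number did not deviate together (correlations of -0.026 to 0.060), so the number was not taken as a pairing. With the replicate number as a block, 3227 were called between the exposure times in place of 6397. *Bhlhe40* lost its call in the ratio (-0.33, adjusted p = 0.0778 by limma) and *Bhlhe41* gained one in the control channel (0.27, adjusted p = 0.0423 by limma), and no other call of a member changed.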
